A study of Mus musculus with 2 samples.

Results

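The nuclear respiratory chain subunits are the genes of the cell nucleus that encode the proteins of oxidative phosphorylation. They were chosen by symbol: every row of both deposited tables that starts with Nduf (without the Ndufaf assembly factors), Uqcr, Cox4 to Cox8 or Atp5, plus Sdha, Sdhb, Sdhc, Sdhd, Cyc1 and Cycs. The rule found 82 of the 14366 genes, the same in both tables. By complex there were 36 genes for complex I, 4 for complex II, 9 for complex III, 1 for cytochrome c, 16 for complex IV and 16 for complex V. Ndufa4 was counted with complex IV, where its protein is now placed. Atp5s also meets the rule, although its protein is not a subunit of the synthase.

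The study asked how an iron chelator acts on mouse hematopoietic stem cells (HSC) at the level of transcripts. Lineage-depleted marrow of 8 wild-type C57/B6 mice, aged 6 to 8 weeks, was pooled, and Lin-Sca-1+c-Kit+CD150+CD48- cells were sorted from it. Cells were cultured for 48 h in medium with added cytokine, SCF (100 ng/ml) among its supplements, either with 10 µM deferoxamine (DFO), which binds iron, or with sterile water as vehicle. From each culture, 20000 cells entered single-cell sequencing of transcript 3′ ends, which gave 1 library per group. The mice were pooled, so neither library gives the spread between animals. The labels do not say whether both cultures were seeded from one sort.

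Respiratory chain complexes I and II take electrons from NADH and succinate and pass them through complex III and cytochrome c to oxygen at complex IV, while complex V uses the resulting proton gradient to make ATP. The electron path runs through iron-sulfur clusters and hemes held by a few of the subunits, and most of the remaining subunits are built around these cores. HSC are known for low use of this pathway in the marrow, and some subunits of complexes I, III, IV and V are also encoded by mitochondrial DNA.

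With 1 library per group no difference has a replicate check, and no test or p-value is given. The tables held 8708 vehicle and 9852 DFO cells, with 260938938 and 284326017 molecules (unique molecular identifiers, UMIs) and medians of 27805.5 and 27114 UMIs per cell. Barcodes shared by both libraries numbered 24, or 0.276% of the vehicle and 0.244% of the DFO cells. All 12 HSC markers looked up were in the tables, with a summed level of 309 CPM (counts scaled to a library total of 1000000) in vehicle and 342 CPM in DFO. Of the 10 HSC markers at a mean of 5 CPM or more, 5 were higher and 5 lower in DFO. Markers of other cells were also present. The 13 megakaryocyte markers in the tables, of 14 listed, summed to 1763 CPM in vehicle and 780 CPM in DFO. For the erythroid list (10 of 11 in the tables) the sums were 964 and 918 CPM, and for the neutrophil-monocyte list (7 of 10) they were 196 and 178 CPM. At a mean of 5 CPM or more, 5 of 6 erythroid and 3 of 3 neutrophil-monocyte markers were lower in DFO, while 57.9% of all genes were higher. Lymphoid markers summed to 8.67 and 8.78 CPM, with Il7r, Rag1 and Cd3e among those not in the tables.

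Levels below are CPM of molecules summed over all cells of a library, with exact 95% Poisson intervals in parentheses that cover counting error only. These 3′ counts are 1 per molecule and do not grow with transcript length. A difference is log2((DFO CPM + 1)/(vehicle CPM + 1)). It counts as past the threshold at an absolute value of 0.25 or more, among genes at a mean of 5 CPM or more. Of the 82 members, 80 reached that mean. The others were Cox7a1, with 327 molecules in vehicle and 350 in DFO, and Cox6a2, with 18 and 14 molecules; both are isoforms known from heart and skeletal muscle.

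The promoters of 4 members are shown, those of cytochrome c and of the complex II genes that have an entry in the RefSeq promoter table, because several results below concern them. Each is the 100 bases before the annotated RefSeq start (GRCm38.p6), read 5′ to 3′ on the gene's strand, with matches to 2 motifs in capitals. These were GCGC and TGCGC spaced by 1 base, a site of NRF1, and CCGGAAG, a site of GABP and other ETS factors, each searched on both strands. NRF1 and GABP are activators of many nuclear genes for mitochondrial proteins.
Sdha (chr13:74350241-74350340, minus strand): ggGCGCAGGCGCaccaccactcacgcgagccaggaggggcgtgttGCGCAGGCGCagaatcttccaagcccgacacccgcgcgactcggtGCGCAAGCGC
Sdhb (chr4:140961171-140961270, plus strand): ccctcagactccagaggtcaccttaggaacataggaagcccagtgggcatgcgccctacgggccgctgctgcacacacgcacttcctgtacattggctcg
Sdhd (chr9:50603850-50603949, minus strand): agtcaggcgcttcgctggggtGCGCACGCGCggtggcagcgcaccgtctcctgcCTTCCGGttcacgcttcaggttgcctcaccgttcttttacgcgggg
Cycs (chr6:50566570-50566669, minus strand): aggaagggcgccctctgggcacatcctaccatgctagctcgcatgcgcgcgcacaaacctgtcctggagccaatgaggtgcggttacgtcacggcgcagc

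The capitals mark 3 NRF1 matches for Sdha, at 98, 55 and 10 bases before the start, and for Sdhd 1 NRF1 match at 79 and 1 GABP/ETS match at 46 bases. Sdhb and Cycs had no exact match to either motif in the 250 bases searched. The search allowed no mismatch, so sites that differ from the pattern by 1 base were not counted. The Sdhd window reaches into the start of Timm8b, a neighbouring gene on the other strand for a mitochondrial import protein, whose level was 178 CPM in vehicle and 191 CPM in DFO (log2 difference 0.10). Of the 82 members, 67 had a promoter window in the RefSeq table, and Cox4i1, Cox4i2 and Sdhc were among those that had none. The NRF1 motif lay in 13 of them (19.4%), against 4.23% of 27025 genes with a window and 8.91% of the 11018 windows of genes in the deposited tables. The GABP/ETS motif lay in 12 (17.9%), against 7.83% and 15.2%. A match says only that the letters are there, and a missing match does not show that a site is absent.

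The summed level of all members was the same in both libraries, 30303 CPM for vehicle against 30262 CPM for DFO, or 3.03% of all molecules in each. Single subunits spread widely around that total. The highest level was that of Ndufa4, with 1688 CPM (1684 to 1693) in vehicle and 1781 CPM (1776 to 1786) in DFO, and the lowest among the 80 was that of Atp5s, at a mean of 11.1 CPM. The median member had a mean level of 284 CPM.

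**Figure D1:**
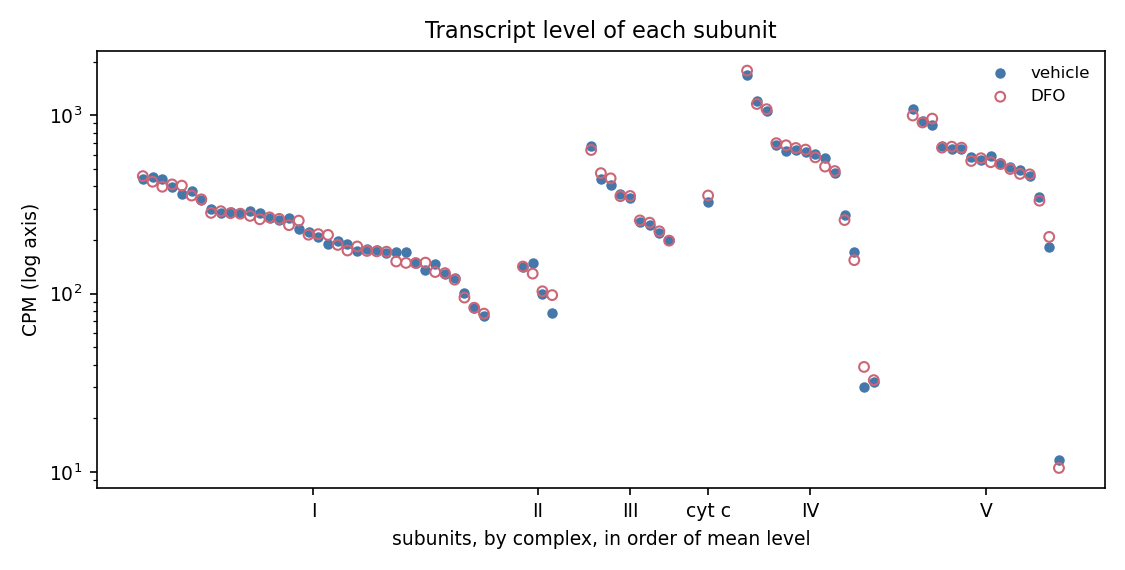
Level of each of the 80 members at a mean of 5 CPM or more (y axis, CPM on a log scale), ordered by mean level within each complex (x axis), with filled points for the vehicle and open points for the DFO library. The points of a gene nearly coincide, except for Sdhd in complex II (77.4 and 98.2 CPM) and Cox4i2 in complex IV (29.9 and 38.8 CPM).

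Subunits of one complex are needed in fixed ratios in the finished enzyme, but their transcripts were not at equal levels. Within complex I, levels ran from Ndufs1, the largest iron-sulfur subunit, at a mean of 76.3 CPM to Ndufc2, an accessory subunit of the membrane arm, at 449 CPM. Complex II, which also has the fewest genes, had the narrowest range of the 5 complexes, from Sdhd at 87.8 CPM to Sdha at 142 CPM. In complex III the levels lay between 200 CPM for Uqcrc1, a core protein, and 654 CPM for Uqcrh, the hinge protein. Complex IV ran from 32.4 CPM for Cox6b2, an isoform known from testis, to 1735 CPM for Ndufa4. Cox6b1, the other isoform of that subunit, had a mean of 690 CPM. Among synthase subunits proper, Atp5g2, one of 3 genes for the same membrane ring protein, was highest at a mean of 1041 CPM. Atp5g2 has near-identical pseudogene copies and its level is uncertain.

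Between the libraries, 2 of 80 members were higher in DFO by 0.25 or more, where 1.4% of the 8886 genes tested were, and 0 of 80 were lower by as much, where 2.58% of genes were. Those 2 were Cox4i2 and Sdhd. The median difference of the members was 0.01, against 0.02 over all genes, and the SD of the differences was 0.10 against 0.13. A difference above 0 was seen in 41 of 80 members, where 57.9% of all genes had one. At an absolute difference of 0.1 or more there were 25 of 80 members, where 33.1% of all genes were.

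**Figure D2:**
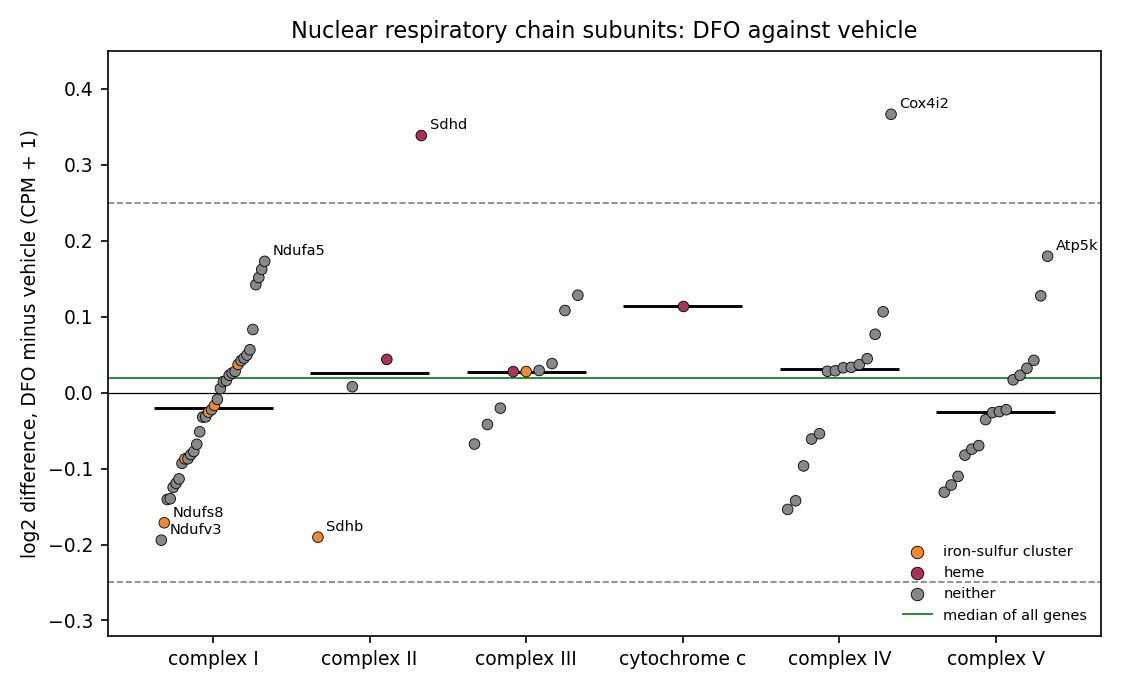
Log2 difference between the DFO and the vehicle library for each member at a mean of 5 CPM or more (y axis), by complex (x axis), with a black bar at each complex's median, dashed lines at an absolute value of 0.25, and colours for subunits that hold an iron-sulfur cluster or a heme. Sdhd (0.34) and Cox4i2 (0.37) lie above the upper line, and Ndufv3 (-0.19) and Sdhb (-0.19) are the lowest points.

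Complex II, or succinate dehydrogenase, oxidises succinate in the citric acid cycle and feeds the electrons into the chain. Its subunits did not share a direction. Sdhd, one of the pair of membrane anchors that hold the heme, had 77.4 CPM (76.4 to 78.5) in vehicle and 98.2 CPM (97.0 to 99.3) in DFO, from 20207 and 27913 molecules. Its difference of 0.34 exceeds that of 99.6% of the genes tested. Sdhc, the other anchor, had 100.0 CPM (98.8 to 101.2) in vehicle and 103.1 CPM (102.0 to 104.3) in DFO, a difference of 0.04. The intervals of Sdhc do not overlap, but the gap is a small fraction of that of Sdhd. At this depth, intervals that do not overlap were the usual case, in 69 of the 82 members. Sdha, the flavoprotein, had 141.2 CPM (139.7 to 142.6) and 142.0 CPM (140.6 to 143.3), and these intervals overlap. Sdhb, which holds the iron-sulfur clusters between the flavin and the anchors, was lower in DFO, with 148.0 CPM (146.5 to 149.5) in vehicle and 129.6 CPM (128.3 to 130.9) in DFO, a difference of -0.19. The summed level of the complex was 467 CPM in vehicle and 473 CPM in DFO.

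The cells of both libraries were grouped into 7 clusters without use of the members, and complex II was read in each. Cluster 1 is mitotic-like (Nusap1, Ube2c, Cenpf). Cluster 4 is megakaryocyte-like (Pf4, Clec1b, Treml1), and cluster 5 is megakaryocyte-like with erythroid markers also among its leading genes (Gp5, Gata1, Aqp1). The others stay without a cell type name: cluster 0 is led by Hist1h2bc and Ltb and also by Ung and Procr, cluster 2 by Egln3, Mgarp and Bnip3, which are known to respond to low oxygen, and cluster 3 by Shisa8 and histone genes. Cluster 6 holds cells of low depth, with a median of 7014 UMIs.

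Sdhd was higher in the DFO library in 7 of 7 clusters. In cluster 0 its level was 80.6 CPM for vehicle against 99.9 CPM for DFO, and in cluster 1 it was 70.4 and 88.8 CPM. In cluster 2 it was 75.3 and 95.8 CPM, and in cluster 3 it was 74.6 and 101.9 CPM. The differences ran from 0.30 in cluster 6 to 0.44 in cluster 3. The Poisson intervals overlapped in cluster 6 alone, where 180 and 240 molecules stood behind the values. In clusters 4 and 5 the levels were 83.4 and 107 CPM and 82.1 and 106 CPM, differences of 0.36 in both, so the cells with megakaryocyte markers also had the higher value in DFO. Sdhb was lower in DFO in 7 of 7 clusters, by -0.07 to -0.21, and its intervals again overlapped in cluster 6 alone. The clusters of 1 library share its preparation and are not replicates. A shared sign in 7 of 7 clusters was common among the members and not particular to these genes. Cox7a2, with differences of only 0.03 to 0.07, was also higher in each cluster. Uqcrh, at -0.10 to -0.01, was lower in each.

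**Figure D3:**
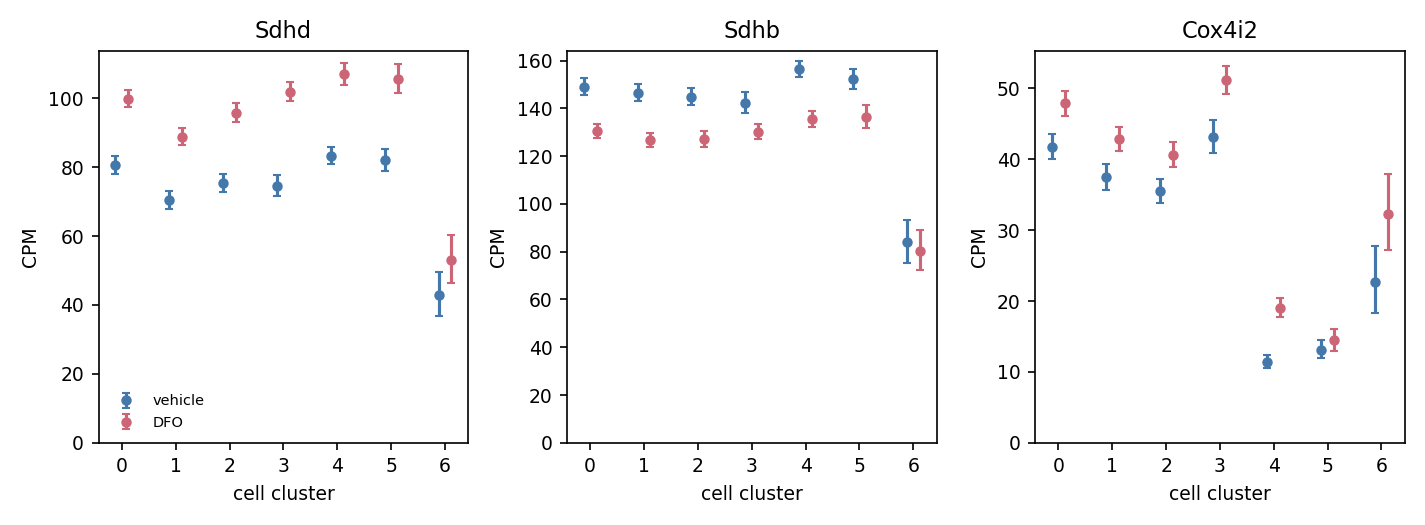
Levels of Sdhd, Sdhb and Cox4i2 (y axes, CPM) in each of the 7 cell clusters (x axes) for the vehicle and DFO libraries, with exact 95% Poisson intervals. Sdhd and Cox4i2 are higher and Sdhb lower in DFO in 7 of 7 clusters, and Cox4i2 is lowest in clusters 4 and 5. Such a shared sign is common among the members.

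The other member past the threshold was Cox4i2, the isoform of complex IV subunit 4 known from lung and from responses to low oxygen. Its level was 29.9 CPM (29.2 to 30.6) in vehicle and 38.8 CPM (38.1 to 39.6) in DFO, from 7804 and 11044 molecules, a difference of 0.37. Its ubiquitous counterpart Cox4i1 had 574.2 CPM (571.3 to 577.1) in vehicle and 516.0 CPM (513.4 to 518.6) in DFO, a difference of -0.15. Cox4i2 was thus the minor isoform in both libraries, with 4.95% of the molecules of this pair in vehicle (exact 95% Clopper-Pearson interval 4.84 to 5.06) and 7.0% in DFO (6.88 to 7.13). Cox4i1 (chr8:120668222-120674207, plus strand, mm10 coordinates of GENCODE M21) overlaps Gm20388 on the same strand and Emc8 on the other, and the treatment of reads in overlaps is not given in the sources at hand. Cox4i2 (chr2:152754173-152765037, plus strand) and Sdhd (chr9:50596357-50603812, minus strand) overlap no annotated gene.

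Cox4i2 had the widest range among clusters 0 to 5 of all members, 1.70 on the log2 CPM scale. In cluster 3 it had 43.2 CPM for vehicle against 51.2 CPM for DFO, and in cluster 0 at 41.8 and 47.9 CPM. Clusters 1 and 2 followed, at 37.5 and 42.8 CPM and at 35.5 and 40.6 CPM. In megakaryocyte-like cluster 4 the level was 11.4 CPM (10.6 to 12.4) in vehicle and 19.0 CPM (17.7 to 20.4) in DFO, and in cluster 5 it was 13.1 CPM (11.9 to 14.5) and 14.5 CPM (13.0 to 16.1). Cells with megakaryocyte markers thus had the lowest Cox4i2 levels in both libraries. Cox4i2 was higher in DFO in 7 of 7 clusters, by 0.13 to 0.69, with intervals that overlapped in clusters 5 and 6.

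Clusters 4 and 5 made up 15.7% and 14.6% of vehicle cells and 12.3% and 9.73% of DFO cells. Of the megakaryocyte markers at 5 CPM or more, 10 of 10 were lower in DFO, while 57.9% of all genes were higher. With every cluster given the same share in both libraries, the difference of Cox4i2 was 0.26 and that of Sdhd 0.35. Among cells with female transcripts the values were 0.35 and 0.35, and among those with male transcripts 0.32 and 0.33. All 10 S phase markers were higher in DFO, where 57.9% of all genes were, with a median of 0.09 against 0.02 over all genes. Their part in the Cox4i2 result was not tested.

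No cluster met the rule for an HSC-like name at resolution 0.5. At resolution 1, 3 clusters met it, and 1 cluster did so when members (2541 cells) or sex-linked genes (2996 cells) were allowed among the clustering genes. The values here are from resolution 1, where the 3 clusters with Ly6a and Wfdc2 among their leading genes held 1472 vehicle and 1805 DFO cells. In the vehicle library these cells had 63.3 CPM of Cox4i2 against 23.5 CPM in all other cells, a difference of 1.39. In the DFO library the levels were 72.8 and 31.2 CPM, a difference of 1.20. In the smallest of the 3 clusters Cox4i2 was among the 10 leading genes, although members were left out of the clustering genes. The level of Cox4i2 there describes these cells and was not tested. In the vehicle library 1 of 80 members was higher in HSC-like cells by 0.25 or more, where 15.9% of genes were, and 2 (Cycs and Atp5k) were lower, where 8.61% were. In the DFO library 1 was higher, where 11.7% of genes were, and 1 (Cycs) was lower, where 5.76% were.

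Cytochrome c, encoded by Cycs, carries electrons from complex III to complex IV and also takes part in apoptosis. It had 328.1 CPM (325.9 to 330.3) in vehicle and 355.1 CPM (352.9 to 357.3) in DFO, a difference of 0.11. Cycs was higher in DFO in 7 of 7 clusters, by 0.07 to 0.20, a shared sign that is not particular to it. Among the clusters it was lowest in cluster 6, with 224 CPM for vehicle against 258 CPM for DFO, followed by cluster 0, at 264 and 302 CPM. It was highest in megakaryocyte-like cluster 4, at 424 and 452 CPM. In vehicle cells Cycs was thus highest in the cluster where Cox4i2 was lowest, but in cluster 3, where Cox4i2 was highest, Cycs was second highest (360 CPM). In HSC-like cells Cycs had 270 CPM against 339 CPM in the other vehicle cells, and 306 against 366 CPM in DFO.

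The subunits that hold iron in a heme or an iron-sulfur cluster were read as separate groups because DFO binds iron. All 4 heme subunits (Sdhc, Sdhd, Cyc1 and Cycs) were higher in DFO, with a median difference of 0.08, where 57.9% of all genes were higher and their median was 0.02. Cyc1, the cytochrome of complex III, had 219.4 CPM (217.6 to 221.2) in vehicle and 223.6 CPM (221.9 to 225.4) in DFO, a difference of 0.03. Of the 7 iron-sulfur subunits 2 were higher and 5 lower (4 lower with cells thinned to 10000 molecules, where Ndufv2 changed sign), with a median of -0.03. Those 2 were Ndufs1 (0.04) and Uqcrfs1, the Rieske protein of complex III (0.03). The lowest were Sdhb (-0.19) and Ndufs8, which holds a pair of clusters in complex I, with 170.8 CPM (169.2 to 172.4) in vehicle and 151.5 CPM (150.1 to 153.0) in DFO (-0.17). Ndufs7, which holds the last cluster before ubiquinone, followed at -0.09, then Ndufv1 at -0.03 and Ndufv2 at -0.02. Apart from Sdhd, none of these 11 subunits was past 0.25.

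Complex I oxidises NADH and is the largest complex of the chain. Its median difference was -0.02, with 16 of 36 subunits higher in DFO, where 57.9% of all genes were. Of its 7 nuclear core subunits, the ones shared with the bacterial enzyme, 1 was higher and 6 lower (5 lower with thinned cells), with a median of -0.03, while 15 of 29 accessory subunits were higher, with a median of 0.01. By module, the NADH-binding N module had a median of 0.02 (6 of 10 higher) and the quinone-binding Q module -0.08 (1 of 5 higher). The lowest complex I subunit was Ndufv3, a small subunit of the N module, with 170.4 CPM (168.8 to 172.0) in vehicle and 148.8 CPM (147.4 to 150.2) in DFO, a difference of -0.19. At the other end stood Ndufa5, of the Q module, with 189.3 CPM (187.7 to 191.0) and 213.6 CPM (211.9 to 215.3), a difference of 0.17, and Ndufa12, of the N module, at 0.16. Subunits of the same module thus lay at opposite ends of the range. Ndufv3 was lower in DFO in 7 of 7 clusters, by -0.01 to -0.23, a shared sign that is common among the members. Its level also differed between clusters, from 132 CPM in cluster 3 to 204 CPM in cluster 4 of the vehicle library. With equal cluster shares in both libraries its difference was -0.15.

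Complex III, which passes electrons from ubiquinol to cytochrome c, had a median difference of 0.03, with 6 of 9 subunits higher in DFO, near the 57.9% and the median of 0.02 of all genes. Uqcrb, a subunit near the ubiquinone site, was highest at 0.13, and Uqcrh lowest at -0.07. Uqcrb has a near-identical pseudogene copy, and its value is uncertain.

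Complex IV, cytochrome c oxidase, had a median of 0.03, with 9 of 14 genes higher in DFO, again near the 57.9% of all genes. Over whole libraries, the shares of its other tissue isoforms had intervals that overlapped. Cox6b2 made up 4.49% of the molecules of Cox6b1 and Cox6b2 in vehicle (4.40 to 4.59) and 4.48% in DFO (4.40 to 4.57). In cluster 4 alone the intervals were apart, at 3.61% (3.43 to 3.79) in vehicle and 4.46% (4.24 to 4.69) in DFO. Cox7a1 made up 0.201% and 0.191% of the Cox7a1 and Cox7a2 molecules. Cox6a2 was nearly absent beside Cox6a1, with 0.0405% and 0.0319% of their molecules. After Cox4i1 the lowest gene of the complex was Cox6a1, the ubiquitous isoform of subunit 6a, with 170.3 CPM (168.7 to 171.9) in vehicle and 154.2 CPM (152.8 to 155.7) in DFO (-0.14). Cox7a2l, a gene linked to supercomplexes of complexes III and IV, was at -0.10. Cox8a was at -0.06, Cox7b at 0.03, Cox7a2 at 0.04 and Ndufa4 at 0.08.

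Complex V, the ATP synthase, had a median of -0.03, with 6 of 16 genes higher in DFO, where 57.9% of all genes were. In the catalytic F1 head 1 of 5 subunits was higher, with a median of -0.03. The 3 ring genes encode one mature protein and lay at -0.12 (Atp5g2), 0.02 (Atp5g1) and 0.02 (Atp5g3). Atp5k, a small membrane subunit linked to the pairing of synthases in the cristae, was highest, with 183.6 CPM (182.0 to 185.3) in vehicle and 208.1 CPM (206.4 to 209.8) in DFO, a difference of 0.18. Atp5s, the gene that is no subunit, was lowest at -0.13.

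Cell clusters were then compared within each library. Members made up 2.94% to 3.18% of molecules in clusters 0 to 5 of the vehicle library and 2.97% to 3.12% in DFO, and 1.92% and 1.98% in cluster 6. In single cells thinned to 10000 molecules the median share was 3.03% in both libraries, with quartiles of 2.82% and 3.22% in vehicle and 2.86% and 3.21% in DFO. The SD over cells was 0.33 percentage points in vehicle and 0.30 in DFO, where counting alone gives 0.17 in each. By called cell cycle phase, the vehicle medians were 2.94% in G1, 3.09% in S and 3.01% in G2/M, and those of DFO were 2.95%, 3.09% and 3.01%. Thinning left out 351 vehicle and 433 DFO cells, and the medians without thinning were 3.02% and 3.03%.

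**Figure D4:**
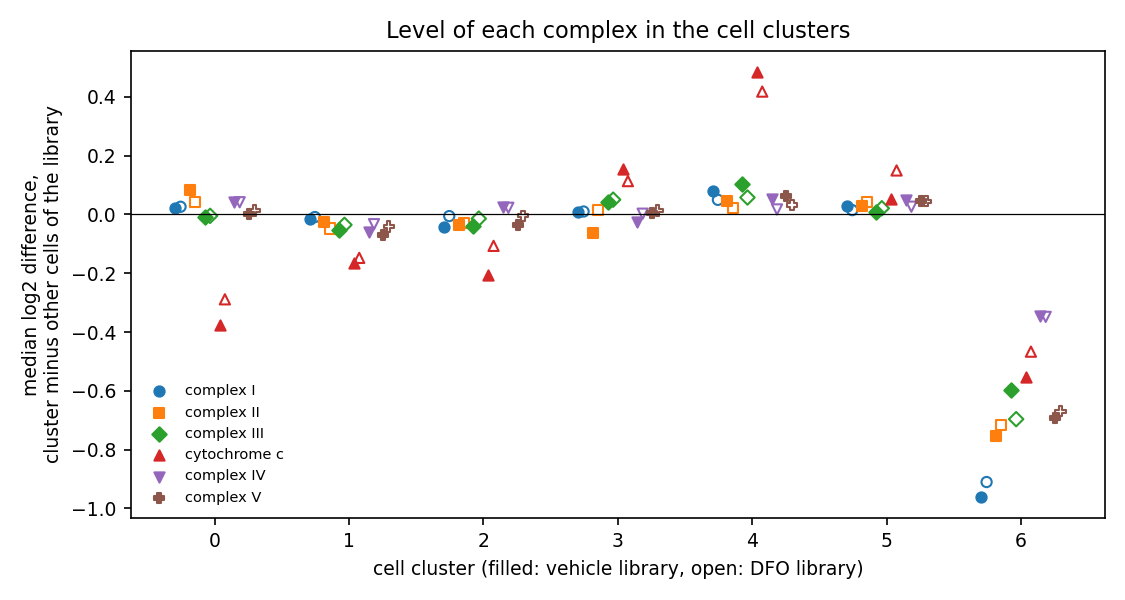
Median log2 difference of the members of each complex between the cells of a cluster and the other cells of the same library (y axis), for the 7 clusters (x axis), with filled symbols for vehicle and open symbols for DFO. Most medians lie near 0 in clusters 0 to 5, cytochrome c is highest in cluster 4 (0.48 and 0.42), and all complexes are below 0 in cluster 6.

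In megakaryocyte-like cluster 4 the median member stood 0.09 above the other vehicle cells and 0.05 above the other DFO cells. In vehicle 9 of 80 members were higher there by 0.25 or more, where 15.5% of all genes were, and 4 of 80 were lower, where 21.7% were. In DFO the counts were 4 of 80, where 14.2% of genes were higher, and 2 of 80, where 18.8% were lower. These shares are below those of all genes. Cycs, Atp5g1, Ndufb10 and Ndufv3 were past the threshold in both libraries. Of these, Atp5g1 had 797 CPM in cluster 4 and 612 CPM in the other vehicle cells, and 786 and 636 CPM in DFO. Cox4i2 and Cox7a2l were lower in cluster 4 in both libraries, Cox7a2l with 234 CPM against 288 CPM in vehicle and 221 against 265 CPM in DFO. In mitotic-like cluster 1 the median was -0.04 in vehicle and -0.03 in DFO.

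Cluster 6 stood apart. It held 428 vehicle and 483 DFO cells, with a median mitochondrially encoded share of 6.17% and 7.5% of UMIs, where the other clusters had 3.25% to 4.65%. Of 80 members 66 were lower in its vehicle cells by 0.25 or more, where 31.4% of all genes were, and 65 were lower in its DFO cells, where 29.8% were. The median member differed by -0.80 and -0.72, while the median of all genes was 0.15 and 0.17. By complex, the vehicle medians were -0.96 for complex I, -0.75 for complex II, -0.60 for complex III, -0.69 for complex V and -0.34 for complex IV. Ndufa9, a complex I subunit near the quinone site, had 23.4 CPM in cluster 6 and 102.8 CPM in the other vehicle cells, and 22.8 and 96.3 CPM in DFO. Ndufv1, which binds NADH, had 30.3 and 123.5 CPM in vehicle. Some small subunits did not follow: Ndufa6 had 263 CPM in cluster 6 and 207 CPM in the other vehicle cells, and Cox8a 1239 and 1207 CPM. Low depth, a high mitochondrially encoded share and low member levels moved together in these cells, and their part in each other was not tested.

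Other genes of the pathway were read beside the subunits. The 13 mitochondrially encoded subunits summed to 38049 CPM in vehicle and 43470 CPM in DFO. Of them 12 were higher in DFO, where 57.9% of all genes were, with a median of 0.15. The count was 11 with size factors, equal cluster shares, thinned cells or the stricter cell filter. Higher by 0.25 or more were 4, where 1.4% of all genes were, led by mt-Nd3 (0.55) and mt-Nd1 (0.29). The lowest were mt-Nd6 (-0.06) and mt-Nd5 (0.00). The summed nuclear subunits of complex I were 8524 CPM in vehicle and 8430 CPM in DFO, while those encoded by mitochondrial DNA were 6400 and 7550 CPM. For complex V these sums were 9150 and 9047 CPM for nuclear and 10580 and 12728 CPM for mitochondrial genes. Nearly all of this mitochondrial sum was mt-Atp6 (0.27), while mt-Atp8 was at 0.04. As sums, the nuclear and mitochondrial genes of complexes I and V therefore did not have the same offset between these libraries. The single genes mt-Nd5, mt-Nd6 and mt-Atp8 did not share the offset of their sums.

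Of 47 assembly factors, which insert cofactors and join the subunits, 46 were in the tables and 45 entered. A difference above 0 was seen in 35 of 45, where 57.9% of all genes had one, with a median of 0.04. The highest were Coa7 (0.25) and Cox16 (0.25), both factors for complex IV, and the lowest were Surf1 (-0.19), also for complex IV, and Ndufaf3 (-0.18), for complex I. Of 16 regulators of nuclear and mitochondrial respiratory genes, 15 entered, with a median of 0.06. Of these 10 were higher in DFO, where 57.9% of all genes were. Past 0.25 either way were 0, where 3.97% of all genes were. Gabpb1 (0.12) and Esrra (0.11) were highest, and Yy1 (-0.05) and Polrmt (-0.03) lowest. Of 7 iron-handling genes that entered, 3 were higher, where 57.9% of all genes were, and 0 past 0.25, where 3.97% were. Tfrc, the transferrin receptor, was highest at 0.23 and Slc11a2 next at 0.05, while Hmox1, heme oxygenase, was lowest at -0.24 and Aco1 next at -0.04.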

How the data were processed

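Each library was deposited as a gene by cell table of natural log values. FastQC 0.11.9, Trim Galore 0.6.5, Cell Ranger 3.0.2 and the build mm10 are named, without roles or order, per the submitters' processing notes. The gene annotation, the cell filter and the counting of reads in overlaps are not given in the sources used for this work. The back-transformed cell totals reach 27408, and all 44114455 and 49560434 nonzero values came out as whole molecules within 0.05, so molecules were recovered and summed per library or cluster. No column was left unused. The medium's full composition is not reported here.

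Clustering used scanpy 1.11.5 and leidenalg 0.10.2 (2000 variable genes without members, cell cycle, mitochondrially encoded, ribosomal protein and sex-linked genes, 30 components, 15 neighbours, resolution 0.5), with no integration. Sex-linked genes were left out after the first clusters followed them. A name needed 3 or more detected markers with a positive mean log2 fold, 1 or more of them among the 10 top genes. Where several types met this, one of them had to have the most such markers and also the highest mean fold, or no name was given, as for cluster 0 (HSC and S phase). Scrublet called 0 vehicle and 4 DFO cells (0.0406%), so its threshold has not worked and doublets were kept. The code was tested on simulated data.

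Positions come from GENCODE M21, on the assembly of mm10, and promoters from RefSeq. Of the 82 members, 11 share a stretch of at least 91 bases at 98% identity or more with another gene within the last 500 bases of a transcript, and their values are uncertain: Cox5b, Ndufs3, Atp5f1, Ndufs5, Uqcr11, Atp5l, Atp5h, Uqcrb, Cox7c, Ndufb9 and Atp5g2. Another 21 overlap a protein-coding gene on the other strand and 5 on the same strand, with some in several of these groups. The row Atp5o.1 carries a suffix, and GENCODE M21 has 2 genes named Atp5o, so which of them it counts is not known.

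Named members were those past 0.25, the 5 highest and 5 lowest differences, the highest and lowest level in each complex, iron-sulfur and heme subunits, the 5 widest ranges over clusters and the isoform sets, and of other lists the 2 highest and 2 lowest. Ndufa6, Ndufb10, Uqcrb and Timm8b were named after their values were seen. The members and lists were chosen with earlier results of these data known. Genes of the isoform sets without a row in the tables were not analysed here.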

Additional observations from a re-analysis of the deposited data

How the results depend on the processing

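Cox4i2 and Sdhd were the members past 0.25 under all 13 alternatives, with ranges of 0.26 to 0.37 and 0.31 to 0.35. These alternatives changed the pseudocount, the scaling, the weight of cells or clusters, the cell filter, thinning, the top 8% of doublet scores or the expression minimum, or, chosen after seeing the data, kept female or male cells alone or left out cluster 6. Within single clusters, Cox4i2 was past 0.25 in clusters 4 and 6 alone. The median difference of the members lay between -0.01 and 0.01, so it has no firm sign, and 36 to 42 members were higher in DFO. The medians of complexes II, III and IV stayed above 0 and those of complexes I and V below 0. The 4 heme subunits were higher in DFO throughout, and 31 to 35 assembly factors were. For Ndufv2, Sdha, Atp5g1, Cox6b2, Cox7a1 and Cox6a2, among the named members, the sign changed with the setting. Among the cell states, the median of megakaryocyte-like DFO cells against other cells (clusters 4 and 5, 0.0501) was 0.0152 with mitochondrially encoded and ribosomal protein genes set aside. That of mitotic-like DFO cells (-0.0311) was 0.00155 at resolution 1, where 423 cells carried the name instead of 1593. The cause was not tested. No paired analysis was possible because each group has 1 library and the labels give no replicate numbers, and no library could be left out. Depth limits cluster 6 and the 2 members under 5 CPM.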
